A study of Homo sapiens with 6 samples.

Results

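The 10 genes described here encode glycolytic enzymes and the subunits of lactate dehydrogenase: GPI, ALDOA, TPI1, GAPDH, PGK1, PGAM1, ENO1, PKM, LDHA and LDHB. They were chosen by gene name, and the counts of all transcript models carrying a name were summed by gene identifier. They are 10 of the 10072 genes in the count table and hold 110 of its 21472 transcript models. Calu-6, an established line of non-small cell lung cancer cells with a genotype labelled WT, received 10 nM of siRNA for 48 h. The siRNA was either a non-silencing control (siControl, 3 libraries) or was directed at the junction of exons 1 and 5 that marks the Delta 2-4 splice variant of TERT, the telomerase reverse transcriptase (siDelta2-4, 3 libraries). Polyadenylated RNA was turned into PCR-amplified cDNA and read as long molecules on a nanopore sequencer. The comparison asks which transcripts differed when this variant was targeted. Per the study's methods, the Calu-6 cells of this experiment stably carried an empty Flag-V5 vector or Flag-V5-Delta 2-4. These lines were made by lentiviral infection and blasticidin selection. The headers of all the count columns used here carry the word for the empty vector, which the sample labels do not mention. All cells were of 1 line, and the libraries are called biological replicates by the study, while the labels do not say that they came from separate transfections, so the spread between them may be partly technical.

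Glycolysis splits glucose into pyruvate in the cytosol, making ATP and NADH on the way, and lactate dehydrogenase turns pyruvate into lactate and gives back the NAD+ that the pathway needs. Many tumour cells run this pathway fast even with oxygen present, and most of its genes are known targets of the hypoxia-inducible factors and of MYC. Several of its mRNAs, GAPDH above all, are so abundant that they serve as reference transcripts.

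The siControl libraries held 1037468 to 1106413 counts and the siDelta2-4 libraries 1070009 to 1309241. Libraries are named by their rank in total count within a group (highest, middle or lowest), because the count columns could be matched to a group but not to a numbered sample. TERT had 0 rows in the table, so its level was not analysed here. Every model in the table had at least 1 count in siDelta2-4, whereas 4526 had none in siControl. Each unannotated model had at least 5 counts in every siDelta2-4 library. This asymmetry thus follows how models entered the table and is not read as a difference between the groups. Of the epithelial markers checked, KRT8 and KRT18 held 824 and 1124 counts and EPCAM 13, while CDH1 had 0 rows, and the mesenchymal marker VIM held 987 counts. The summed epithelial markers spanned 280 to 295 CPM (counts divided by a library total that TMM, the trimmed mean of M-values, had scaled) in siControl and 276 to 334 CPM in siDelta2-4. The 3 mesenchymal markers (VIM, CDH2 and FN1) summed to 125 to 146 CPM in siControl and 153 to 168 CPM in siDelta2-4. Of these, 1 had 0 rows and 1 was tested and not called. Their sums did not overlap between the groups, which held for the CPM of 26.0% of all genes tested. Fibroblast and leukocyte markers summed to at most 4.06 and 3.07 CPM in any library, and the endothelial markers had 0 rows.

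The enzymes took 71727 counts, 1.06% of all counts in the 6 libraries, and GAPDH alone supplied 61.5% of them. Their share of a library was 0.941%, 0.924% and 1.19% in the siControl libraries of highest, middle and lowest total, and 1.08%, 1.14% and 1.06% in the matching siDelta2-4 libraries. The siDelta2-4 values lay inside the siControl range. The group means were 1.02% ± 0.150 and 1.09% ± 0.0432 (SD, n = 3).

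Levels of different genes were compared as CPM per kilobase of the transcript models behind each gene, averaged over the 6 libraries with the SD. The counts are of whole reads, so this division lowers genes with long models (4745 bases for PGK1 and 4071 for GPI, against 1249 for GAPDH). GAPDH, which oxidises glyceraldehyde phosphate, stood first at 5242 ± 385 CPM per kilobase, and its range overlapped that of no other enzyme. TPI1 (809 ± 73.6) and LDHB (754 ± 85.5) followed with overlapping ranges, although TPI1 was above LDHB in 6 of 6 libraries. ALDOA (320 ± 39.4) and ENO1 (306 ± 27.4) could not be separated by their ranges, and ALDOA was above ENO1 in 5 of 6 libraries. LDHA came next at 162 ± 25.1 CPM per kilobase, apart from both of its neighbours in the order. PKM (60.8 ± 5.81) overlapped PGAM1 (49.9 ± 12.9), which overlapped PGK1 (37.8 ± 2.23). GPI, the first enzyme of the set in pathway order, was the lowest at 13.9 ± 4.09 CPM per kilobase, and GAPDH exceeded it 377-fold on this scale. In mean CPM without the division by length, GAPDH (6550) and GPI (56.6) were still first and last. On that scale ENO1 (517) was above ALDOA (468), and PGK1 (179) was above PKM (138) and PGAM1 (89.9). The order of the pathway was thus not the order of mRNA level on either scale.

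**Figure D1:**
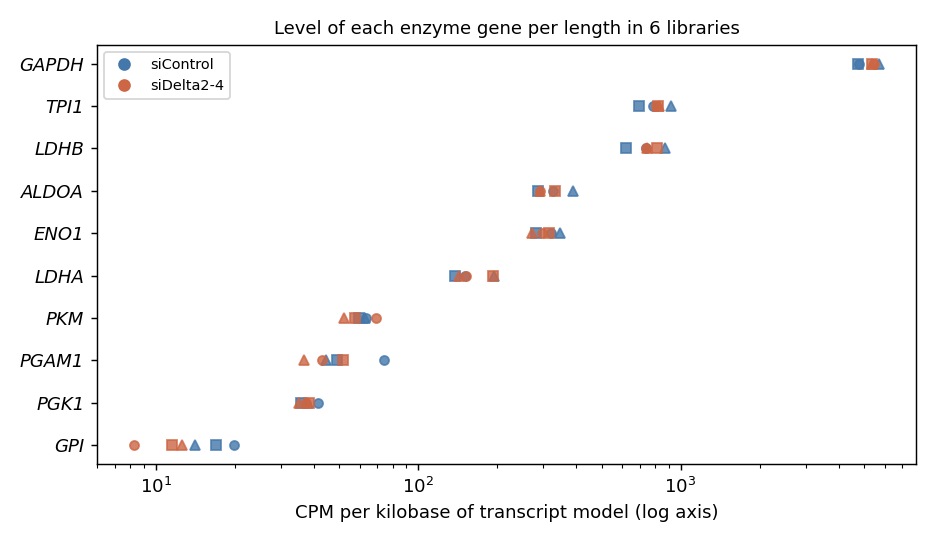
Level of each enzyme gene in CPM per kilobase of transcript model (log axis), with 1 point per library, coloured by group and shaped by the rank of the library's total count (circle highest, square middle, triangle lowest). GAPDH sits alone at the top, near 5242 CPM per kilobase, and GPI alone at the bottom, near 13.9, while TPI1 and LDHB, ALDOA and ENO1, and the trio of PKM, PGAM1 and PGK1 run into each other.

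Of the 10 enzyme genes, 1 changed between the groups, GPI, which was lower in siDelta2-4. The test was the quasi-likelihood F-test of edgeR with Benjamini-Hochberg adjustment over the whole table, and a gene was called when its adjusted p was below 0.1. Across the 3888 genes tested, 13.0% were called in either direction, 5.97% of them lower and 7.00% higher in siDelta2-4, so the count for the enzymes was close to the background. The CPM of the groups did not overlap for 1 of 10 enzymes, against 26.0% of all genes tested. The median log2 fold change of the enzymes, siDelta2-4 against siControl, was -0.052, against 0.027 for all genes tested. The estimates of the 8 genes other than GPI and PGAM1 had 95% intervals that reached no lower than -0.34 (ALDOA) and no higher than 0.26 (LDHA). Over all genes, the calls split into 272 higher and 232 lower with TMM, 361 and 152 with library totals alone, 78 and 201 with DESeq2, and 194 and 283 with a trend on transcript length removed, and GPI was lower under each of these. DESeq2 called 1 of the 10 enzymes, against 16.7% of its 1675 genes with an adjusted p (12.0% lower and 4.66% higher).

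**Figure D2:**
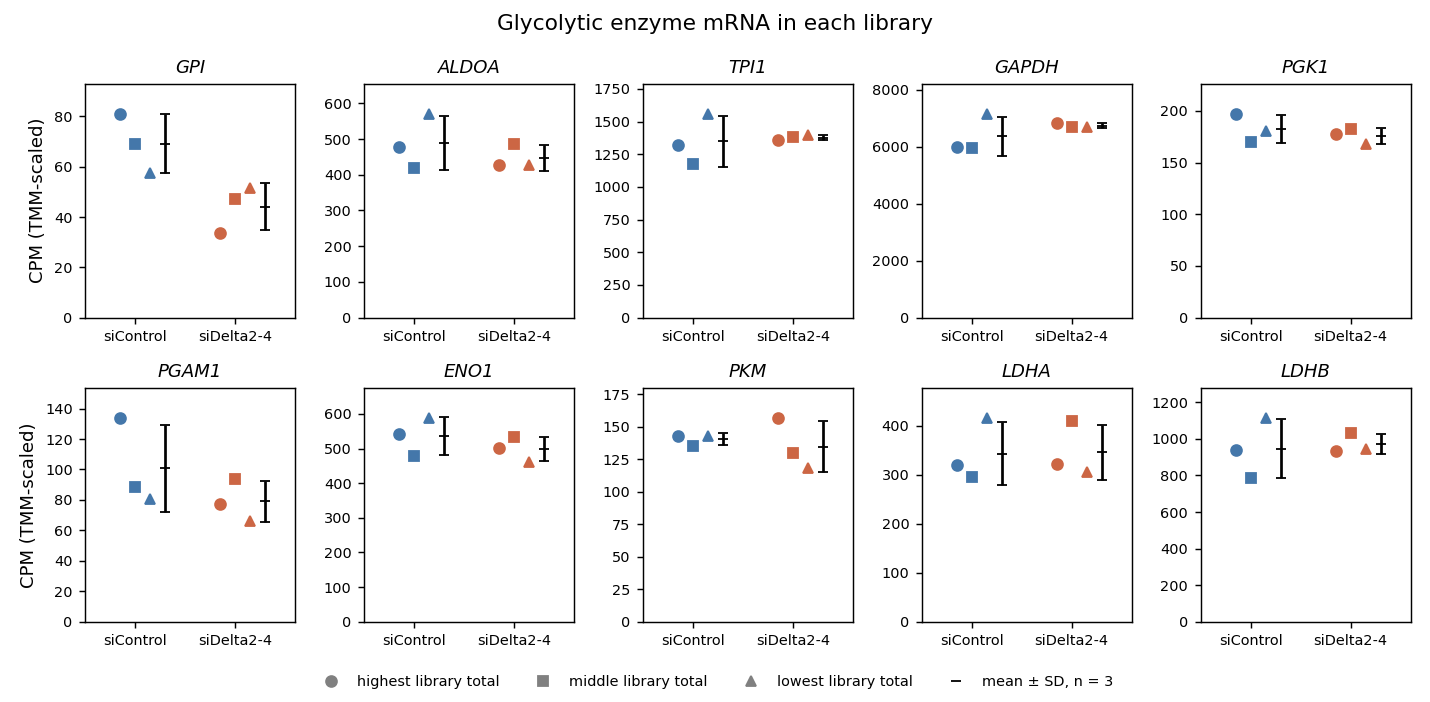
CPM of each enzyme gene (linear axes from 0, a scale of its own for each gene) in the 3 siControl and 3 siDelta2-4 libraries, with the mean and SD of each group as a black bar. GPI is the gene whose groups do not overlap (57.5 to 80.9 against 33.8 to 51.5 CPM), and the siDelta2-4 points of TPI1 and GAPDH lie closer together than their siControl points.

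GPI (ENSG00000105220.17, chr19:34359480-34402413, plus strand, GRCh38) interconverts glucose phosphate and fructose phosphate, and its protein is also secreted as a cytokine. Its siControl counts were 83, 72 and 60 (highest, middle and lowest library total), which is 80.9, 69.0 and 57.5 CPM. The corresponding siDelta2-4 counts were 44, 58 and 55, which is 33.8, 47.1 and 51.5 CPM. All 3 siDelta2-4 libraries were below all 3 siControl libraries, with a gap of a few CPM between the closest pair. The mean went from 69.1 ± 11.7 to 44.1 ± 9.24 CPM (SD, n = 3), a log2 fold change of -0.66 ± 0.19 (SE, 95% interval -1.04 to -0.28), or 0.634-fold, with an adjusted p of 0.0270 in edgeR. The call rested on 372 counts over 6 libraries. It was lost without the siControl library of highest total (-0.55, adjusted p = 0.104) and without the siDelta2-4 library of highest total (-0.49, adjusted p = 0.169), the samples with the most and the fewest GPI CPM.

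ALDOA (ENSG00000149925.22, chr16:30064164-30070457, plus strand) encodes the main muscle and tumour form of aldolase, which cleaves fructose bisphosphate into a pair of triose phosphates. It was at 477, 419 and 570 CPM in siControl (highest, middle and lowest total) and at 427, 488 and 427 CPM in siDelta2-4. The groups overlapped, and the log2 fold change was -0.13 ± 0.10 (95% interval -0.34 to 0.083, adjusted p = 0.487 in edgeR). A coding gene that overlaps ALDOA on the same strand, ENSG00000285043, held 788 counts to the 3133 of ALDOA, and with them added the log2 fold change was -0.067. TPI1 (ENSG00000111669.15, chr12:6867119-6870948, plus strand), which interconverts the triose phosphates, was at 1319, 1174 and 1557 CPM in siControl and at 1356, 1385 and 1394 CPM in siDelta2-4. The siDelta2-4 libraries lay within the siControl range, and the log2 fold change was 0.030 ± 0.088 (95% interval -0.15 to 0.21, adjusted p = 0.878 in edgeR). The sign of this small value was negative when either the siControl library of highest or of middle total was left out.

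GAPDH (ENSG00000111640.15, chr12:6534512-6538374, plus strand) was counted 6148, 6193 and 7457 times in siControl and 8911, 8238 and 7146 times in siDelta2-4. In CPM this is 5994, 5939 and 7143 for siControl and 6838, 6694 and 6691 for siDelta2-4. The siControl library of lowest total was above all others and the other siControl libraries were below all others, so that the siDelta2-4 libraries fell between them. The log2 fold change was 0.084 ± 0.079 (95% interval -0.079 to 0.25, adjusted p = 0.567 in edgeR), and it was -0.060 with the length trend removed. PGK1 (ENSG00000102144.15, chrX:77910739-78129295, plus strand), which makes the first ATP of the pathway, was at 197, 170 and 181 CPM in siControl and at 177, 183 and 168 CPM in siDelta2-4. Its groups overlapped, with a log2 fold change of -0.052 ± 0.11 (95% interval -0.28 to 0.17, adjusted p = 0.827 in edgeR), and the value was 0.018 with library totals alone.

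PGAM1 (ENSG00000171314.9, chr10:97426191-97433444, plus strand), the phosphoglycerate mutase of most tissues, was the gene nearest to a call after GPI. It was at 134, 88.2 and 80.5 CPM in siControl and at 77.5, 93.4 and 66.5 CPM in siDelta2-4. The siControl library of highest total stood above the other 5, which overlapped. The log2 fold change was -0.34 ± 0.17 (95% interval -0.69 to 0.0049, unadjusted p = 0.0531 and adjusted p = 0.220 in edgeR), and it ranged from -0.50 to -0.11 as each library was left out.

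ENO1 (ENSG00000074800.16, chr1:8861000-8879190, minus strand) encodes the widespread form of enolase, which makes phosphoenolpyruvate. It was at 543, 478 and 587 CPM in siControl and at 502, 533 and 462 CPM in siDelta2-4, with overlap between the groups and a log2 fold change of -0.10 ± 0.094 (95% interval -0.30 to 0.091, adjusted p = 0.557 in edgeR). PKM (ENSG00000067225.21, chr15:72199029-72231819, minus strand) encodes the muscle and tumour forms of pyruvate kinase, which makes the last ATP of the pathway. It was at 143, 135 and 143 CPM in siControl and at 157, 130 and 118 CPM in siDelta2-4. The siDelta2-4 libraries were spread to both sides of the siControl libraries. Its log2 fold change was -0.052 ± 0.12 (95% interval -0.30 to 0.20, adjusted p = 0.845 in edgeR), and the value was 0.015 with library totals alone.

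LDHA and LDHB encode the subunits of lactate dehydrogenase, which mix freely in a tetramer. LDHA is known as the muscle type, favouring lactate production, and LDHB as the heart type. LDHA (ENSG00000134333.15, chr11:18394560-18408425, plus strand) was at 320, 294 and 415 CPM in siControl and at 322, 409 and 305 CPM in siDelta2-4. LDHB (ENSG00000111716.14, chr12:21635342-21757857, minus strand) was at 941, 787 and 1112 CPM in siControl and at 936, 1032 and 947 CPM in siDelta2-4. Both overlapped between the groups, with log2 fold changes of 0.012 ± 0.12 (LDHA, 95% interval -0.23 to 0.26, adjusted p = 0.972) and 0.037 ± 0.097 (LDHB, 95% interval -0.16 to 0.24, adjusted p = 0.863) in edgeR, whose signs turned under several alternatives. LDHB was the more abundant subunit mRNA in these cells, at 754 against 162 CPM per kilobase, and at 959 against 344 CPM without division by length. LDHA supplied 25.4%, 27.2% and 27.2% of the combined counts in siControl and 25.6%, 28.4% and 24.4% in siDelta2-4. The means were 26.6% ± 1.05 and 26.1% ± 2.04 (SD, n = 3), a difference of -0.462 percentage points with a p of 0.9 in an exact two-sided permutation test, which cannot go below 0.1 with 3 libraries against 3.

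**Figure D3:**
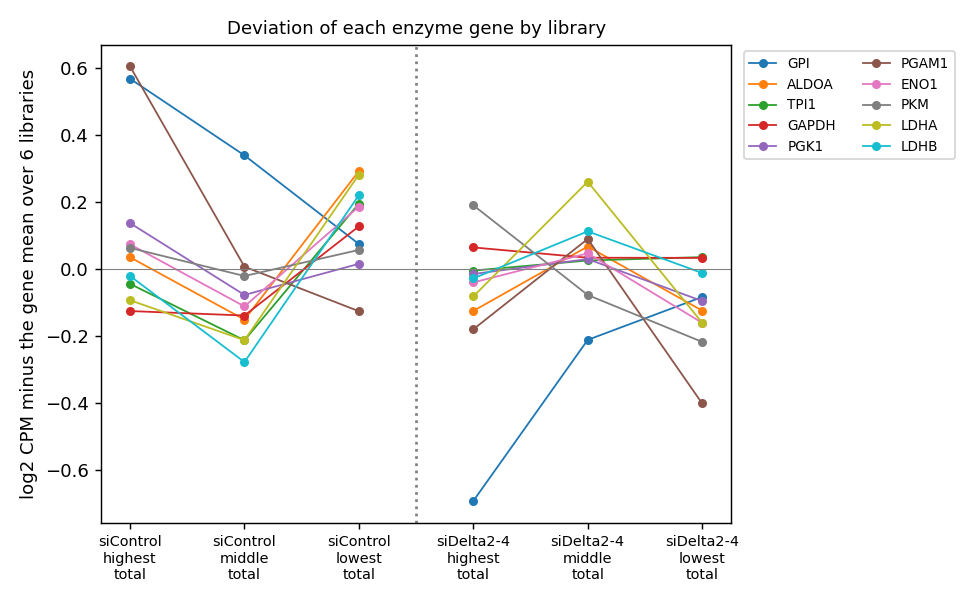
Log2 CPM of each enzyme gene minus its mean over the 6 libraries, by library, with lines that join the points of a gene within a group and carry no order. Most genes peak in the siControl library of lowest total, PGK1, PGAM1 and GPI peak in the siControl library of highest total, and GPI is lowest in the siDelta2-4 library of highest total.

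The siControl libraries were not alike in these genes. The siControl library of lowest total held the highest CPM of 6 of 10 enzymes (ALDOA, TPI1, GAPDH, ENO1, LDHA and LDHB), whereas 16.0% of all genes tested peaked there. The siControl library of middle total held the lowest CPM of 5, and the share of all genes that were lowest there was not computed. Relative SDs in siControl were 14.3% for TPI1 and 10.7% for GAPDH, against 1.45% and 1.24% in siDelta2-4, while PKM went the other way, with 3.22% against 14.6%. The library was also set apart from the other siControl libraries in its trend of counts on transcript length. At the length of GAPDH, the fitted trend (log2, relative to the mean of the 6 libraries) was 0.081 in it, -0.14 and -0.16 in the other siControl libraries, and 0.054 to 0.11 in siDelta2-4. How far the length trend accounts for the level of the enzymes was not tested.

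The trend bears on the comparison, since at the enzymes' lengths it was 0.15 (GAPDH) to 0.18 (GPI) higher on the log2 scale in siDelta2-4 than in siControl. With the trend removed in each library, all 10 enzymes had a negative log2 fold change, with a median of -0.22 against -0.0090 for all genes tested. The removal took about the amount above off each enzyme, so the shared sign follows from it and is not a separate result. In that fit 4 enzymes were called, all lower, against 12.3% of all genes (7.28% lower and 4.99% higher): GPI (-0.84, adjusted p = 0.00964), ALDOA (-0.28, adjusted p = 0.0358), ENO1 (-0.27, adjusted p = 0.0386) and PGAM1 (-0.52, adjusted p = 0.0845). GAPDH at -0.060, LDHB at -0.11, TPI1 at -0.13 and LDHA at -0.16 were not called in that fit. Without the siControl library of lowest total, 3 enzymes were called, against 25.4% of all genes (11.9% lower and 13.5% higher): GPI (-0.80) and PGAM1 (-0.50, adjusted p = 0.0126) were lower and GAPDH (0.15, adjusted p = 0.0805) was higher in siDelta2-4. Both GPI and PGAM1 were called in each of these fits, and GPI also in the fit to all libraries without a length correction. As given above, the GPI call was lost when either library of highest total was left out.

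**Figure D4:**
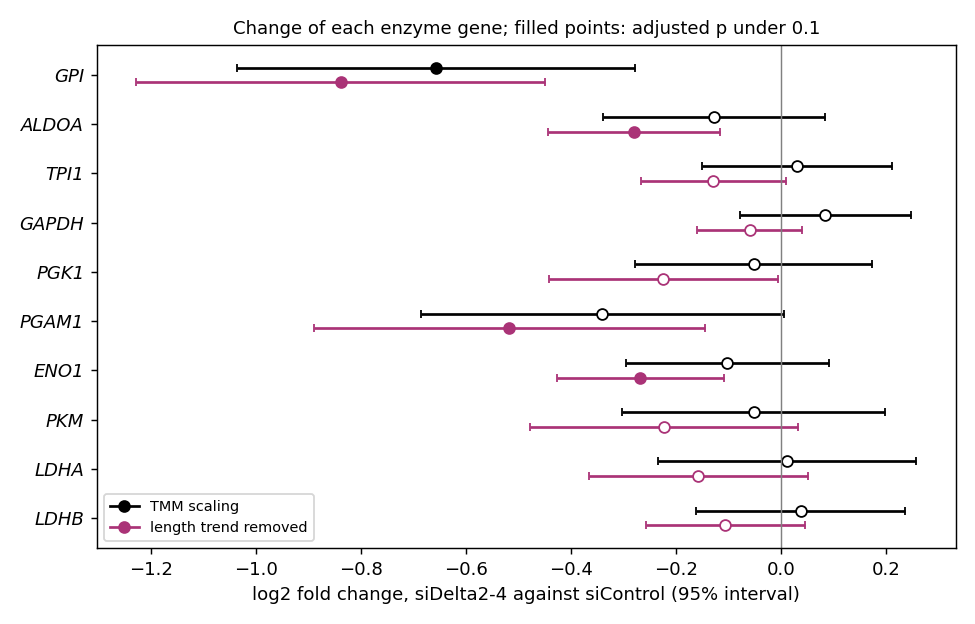
Log2 fold change of each enzyme gene, siDelta2-4 against siControl, with 95% intervals from edgeR, on TMM-scaled counts (black) and with the length trend of each library removed (purple). Filled points mark an adjusted p under 0.1. GPI is filled in both fits, at -0.66 and -0.84, while ALDOA, PGAM1 and ENO1 are filled with the trend removed alone.

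Long reads show which transcript models carry each gene. A model is called known when it matches an annotated transcript. An incomplete splice match has a run of known junctions short of the full transcript, and models with a new combination of known splice sites or with a new splice site are the other unannotated classes here. Known models held 86.3% of the counts on the enzymes (86.0% ± 1.06 in siControl and 86.5% ± 0.62 in siDelta2-4, SD, n = 3), against 45.3% of the counts in the whole table. The whole table also holds unannotated loci, which have no known models, so the shares are not of like sets. GPI, PGK1 and PGAM1 had known models alone. Each unannotated model kept had at least 5 counts in every siDelta2-4 library, where GPI had 44 to 58 counts and PGAM1 71 to 115. Unannotated models of low share in genes of few counts would thus not be seen. A single protein-coding model dominated most genes: GAPDH-201 with 36212 counts (82.1% of the gene), TPI1-201 with 7845 (85.6%), LDHB-211 with 5725 (88.8%), ENO1-201 with 2880 (83.0%), ALDOA-219 with 2663 (85.0%), LDHA-205 with 2004 (86.5%), PGK1-201 with 1182 (98.3%), PGAM1-201 with 599 (99.8%) and GPI-201 with 361 (97.0%). GAPDH, the most deeply counted gene, had 40 models, of which 35 were unannotated and together held 14.6% of its counts.

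**Figure D5:**
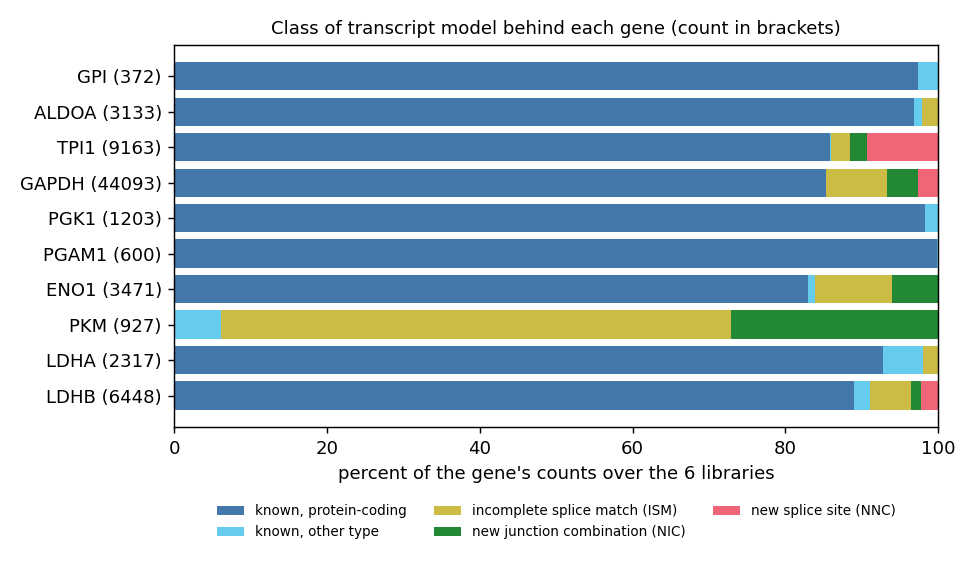
Percent of each gene's counts over the 6 libraries that fell on known protein-coding models, other known models and the 3 unannotated classes, with the gene's total count in brackets. Known protein-coding models fill most of every bar except PKM, whose 927 counts lie on unannotated models (93.9%) and known models of other types (6.15%).

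PKM was the exception. Its 3 known models were retained-intron transcripts with 57 counts (6.15% of the gene), and no protein-coding known model of PKM had a row. The incomplete splice match TALONT000586539, with 11 exons and 2344 bases, was counted 97, 97 and 107 times in siControl and 135, 97 and 85 times in siDelta2-4, or 68.9% ± 2.91 and 64.8% ± 3.63 of the gene. A new combination of known splice sites, TALONT000586646 with 2309 bases, held 8.72% ± 1.28 in siControl and 12.8% ± 0.738 in siDelta2-4, and neither this model (adjusted p = 0.356) nor the usage of PKM models as a whole (adjusted p = 0.665) was called in edgeR. Another model of that class, TALONT000586644 with 2313 bases, went the other way, from 11.9% ± 1.40 to 10.7% ± 1.89. It was not called either (adjusted p = 0.847 in edgeR). The choice between the exons that separate the M1 and M2 forms of pyruvate kinase was not analysed here, since the table gives no exon positions for the unannotated models.

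Of the 110 models, 59 were tested and 1 was called, GPI-201 (ENST00000356487.11), against 6.91% of all models. It was counted 83, 70 and 59 times in siControl and 43, 56 and 50 times in siDelta2-4, with a log2 fold change of -0.68 ± 0.19 and an adjusted p of 0.0333 in edgeR. The change of the GPI gene was thus that of its main coding model, and the retained-intron models of GPI held 10 counts in all. Next came a short ALDOA model, the incomplete match TALONT000622633 of 3 exons and 473 bases, counted 16, 13 and 13 times in siControl and 12, 8 and 5 times in siDelta2-4 (log2 fold change -0.92 ± 0.36, adjusted p = 0.155). It made up 2.81% ± 0.562 and 1.53% ± 0.557 of ALDOA. The use of models within a gene could be tested for 7 enzymes with diffSpliceDGE and none was called, against 0.618% of all genes tested, with ALDOA lowest (unadjusted p = 0.0377, adjusted p = 0.459, the count at an unadjusted p under 0.05 being 1). The other unannotated models with the most counts were TALONT000289668 of GAPDH (1015 counts), TALONT000320367 of TPI1 (770), TALONT000337475 of LDHB (220), TALONT000305031 of ENO1 (125) and TALONT000600230 of LDHA (46), and none of the 4 of these that were tested was called.

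Known coding models were also grouped by their annotated start, since no start positions were given for the reads themselves. In ALDOA, a gene with several promoters, models with annotated starts at chr16:30065760-30065777 made up 89.9% ± 1.24 of coding-model counts in siControl and 88.3% ± 1.14 in siDelta2-4. Models with annotated starts upstream at chr16:30064185-30064274, led by ALDOA-206, made up 9.65% ± 1.36 and 11.4% ± 0.815. The 788 counts on the overlapping gene ENSG00000285043 are not in these shares. In LDHA, models with annotated starts at chr11:18394562-18394586 made up 92.6% ± 2.57 and 94.1% ± 0.384. In GAPDH, those with annotated starts at chr12:6534517-6534534 made up 96.4% ± 0.340 and 96.5% ± 0.328. These shares differed between the groups by no more than a few percentage points and were given no test of their own.

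The bases upstream of the most counted coding model are shown for some of the genes that differ in level or are known targets of the hypoxia-inducible factors. The window was the 250 bases before the model's start in hg38, from which bases in annotated exons were left out. Capitals mark ACGTG or GCGTG, the core of the hypoxia response element, on either strand. The LDHA-205 stretch is chr11:18394313-18394559 (plus strand), LDHB-211 is chr12:21657972-21658092 (minus strand, ending 129 bases before the start), PGK1-201 is chrX:78103998-78104247 (plus strand) and ALDOA-219 is chr16:30065510-30065759 (plus strand).
LDHA-205: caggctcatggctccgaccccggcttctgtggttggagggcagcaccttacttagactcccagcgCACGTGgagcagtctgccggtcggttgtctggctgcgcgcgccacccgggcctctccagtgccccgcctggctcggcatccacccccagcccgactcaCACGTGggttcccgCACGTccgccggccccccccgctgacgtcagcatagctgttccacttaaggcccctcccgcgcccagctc
LDHB-211: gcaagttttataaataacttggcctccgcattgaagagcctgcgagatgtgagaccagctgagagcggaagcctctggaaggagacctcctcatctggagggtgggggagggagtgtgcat
PGK1-201: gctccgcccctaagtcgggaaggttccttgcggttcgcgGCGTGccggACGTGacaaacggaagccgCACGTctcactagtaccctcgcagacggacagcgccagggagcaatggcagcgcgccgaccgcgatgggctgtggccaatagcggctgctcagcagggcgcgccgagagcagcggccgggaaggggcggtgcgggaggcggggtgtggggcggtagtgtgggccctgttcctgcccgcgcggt
ALDOA-219: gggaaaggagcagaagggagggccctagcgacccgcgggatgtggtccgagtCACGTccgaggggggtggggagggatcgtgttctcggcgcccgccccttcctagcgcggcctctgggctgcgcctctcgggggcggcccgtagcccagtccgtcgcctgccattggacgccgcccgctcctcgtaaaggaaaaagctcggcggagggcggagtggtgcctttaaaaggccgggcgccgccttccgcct
The LDHA stretch held 5 matches, with CACGTG, which is also the core of the E-box, counted on each strand because it reads the same on both. The PGK1 stretch held 3, the ALDOA stretch 1 and the LDHB stretch 0. The core was in the window of 7 of the 9 enzymes with a known coding model, and in 63.2% of 1780 such windows of coding genes tested, so its presence does not set the enzymes apart. GGGCGG, the GC box, was in 6 of 9 windows (67.4% of all), and TATAAA, the letters of the TATA box, was in 2 of 9 (5.96% of all), LDHB among them. In LDHB these letters lie at the far end of the shown stretch, which itself ends 129 bases before the start. The counts take no account of position. The windows of GPI and ENO1 lay in annotated exons and are not shown. A match is a description of letters, and whether these letters act in these cells was not tested.

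The genes around the pathway were described from 5 lists with 94 genes, of which 53 had rows and 18 were tested. Of these, 2 were called, both lower in siDelta2-4, against the 13.0% of all genes tested. AKR1B1, the aldose reductase that turns glucose into sorbitol, was counted 73, 69 and 104 times in siControl and 73, 76 and 53 times in siDelta2-4 (log2 fold change -0.50 ± 0.17, adjusted p = 0.0715 in edgeR). BSG, the chaperone of the lactate transporters at the cell surface, was counted 94, 115 and 157 times in siControl and 98, 117 and 88 times in siDelta2-4 (log2 fold change -0.48 ± 0.16, adjusted p = 0.0536 in edgeR). In CPM the groups did not overlap for AKR1B1 and did for BSG. Both had their highest level in the siControl library of lowest total, and without it the adjusted p was 0.197 for AKR1B1 and 0.163 for BSG. Both calls were also lost without the siDelta2-4 library of highest total (0.167 and 0.204), without that of lowest total (0.209 and 0.145) and with library totals alone (0.172 and 0.166), and that of AKR1B1 without the middle siDelta2-4 library (0.127). An antisense gene on the opposite strand, BSG-AS1, had 557 counts to the 669 of BSG, so reads of the pair may not have been separated.

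Glucose entry and the first committed steps were close to the limit of detection. Of 17 genes for glucose transporters, hexokinases, phosphofructokinases and their regulators, 6 had rows and 0 were tested, with 51 counts for TIGAR, 22 for PFKP and 18 for SLC2A1 over the 6 libraries. This depth could not show a difference for these genes. Of the other isozymes, ALDOC was tested (log2 fold change -0.032, adjusted p = 0.967), and ENO2 and BPGM had 33 and 15 counts. Among the branches into the pentose phosphate, serine and polyol pathways, 7 genes were tested, and TALDO1 (0.18, adjusted p = 0.405), TKT (0.20, adjusted p = 0.612) and PHGDH, the entry enzyme of serine synthesis (-0.68, adjusted p = 0.105), were not called. On the exit side, which covers pyruvate import and oxidation and the shuttles that carry NADH equivalents, 8 genes were tested, and MDH1 (0.12, adjusted p = 0.603), GOT1 (-0.25, adjusted p = 0.520) and PDHB (0.38, adjusted p = 0.266) were not called. Among 24 hypoxia regulators and targets outside the pathway, 2 were tested and 0 called, MIF (-0.18, adjusted p = 0.309) and BNIP3L (-0.34, adjusted p = 0.517), and ANKRD37 had 25 counts. These p-values are those of the same edgeR fit.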

How the data were processed

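For each of the 6 libraries the authors deposited raw counts of reads assigned to transcript models, which were whole numbers. Per the study's methods, reads were aligned to GRCh38.p14 with minimap2 2.14, sorted with SAMtools 1.13, corrected with TranscriptClean and annotated with TALON against Gencode v44, and transcripts were filtered at 5 reads in 3 samples. In the table, each unannotated model had at least 5 counts in every siDelta2-4 library but not always in siControl, and known models with fewer counts were present. The shares of all genes and models called, given as background, include models that entered in this way. With known models alone, 120 genes were called higher and 132 lower in siDelta2-4. The siRNA in each column name gave its group, and 0 columns were left out.

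Counts summed per gene went into edgeR 4.0.16 (R 4.3.3), with filterByExpr, TMM and a quasi-likelihood test between the 2 groups (two-sided, Benjamini-Hochberg over all genes, adjusted p under 0.1). Models were tested the same way and usage with diffSpliceDGE. CPM used TMM-scaled totals, and the SE was taken from the quasi-likelihood F. Alternatives were DESeq2 1.42.0, its size factors, library totals alone, other count filters, a per-library loess trend on length (span 0.4), known models alone, retrocopies added, each library left out and a block on the column number. Genes and coordinates came from Gencode v44, and bases from hg38, where the first 30 bases of 1758 of 1781 models checked, the enzymes' included, matched the annotation's transcripts. Counting error is the limit for genes of few counts. The libraries were PCR-amplified without stated molecular identifiers.

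The enzymes and the lists were chosen with earlier results of these data known. The genes named were the 10 enzymes, list genes that were called, and up to 3 others per list with the highest mean CPM. The models named were the most counted known and unannotated model of a gene and any called. The upstream bases of 1 enzyme gene are not reported here. Other models or genes named were chosen after their values were seen.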

Additional observations from a re-analysis of the deposited data

How the results depend on the processing

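The number of enzyme genes called was 1 under DESeq2, DESeq2 size factors, library totals alone, both other count filters, known models alone (9 enzymes tested), retrocopies added, same-strand genes added (chosen after seeing the data) and an adjusted p under 0.05. It was 4 with the length trend removed and ranged from 0 to 3 when each library was left out. The number of enzyme models called ranged from 0 to 5 when each library was left out, the 5 without the siControl library of lowest total. In that fit 25.4% of all genes were called. The share of all models called there was not computed, so the 5 is not read as a result about the enzymes. No usage call was made under any alternative run. The difference in LDHA share ranged from -1.59 to 0.407 percentage points over the fits with a library left out, the positive value being that without the siDelta2-4 library of lowest total. GPI was negative under all alternatives run. The cause of the other changes was not tested. The sign of several small log2 fold changes turned. With DESeq2 it was -0.020 for TPI1, -0.040 for LDHA and -0.012 for LDHB, where the median of all genes tested was -0.086 against 0.027 in edgeR. With the length trend removed it was -0.13 for TPI1, -0.060 for GAPDH, -0.16 for LDHA and -0.11 for LDHB. With library totals alone it was 0.018 for PGK1 and 0.015 for PKM. For LDHA it was also -0.014 with DESeq2 size factors, -0.0042 with no count filter and -0.019 with known models alone. Over the fits with a library left out, TPI1 ranged from -0.065 to 0.12, PKM from -0.18 to 0.026, LDHA from -0.13 to 0.15 and LDHB from -0.083 to 0.15. Among all genes, calls numbered 504 of 3888 tested against 252 of 1854 with known models alone, and 194 to 1041 with a library left out.

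The column numbers did not pair the libraries: the correlations of same-numbered libraries were 0.039, -0.14 and -0.084. With the replicate block the number of enzymes called was 1 (GPI, -0.65, adjusted p = 0.0395), with 299 genes called in all, 1 enzyme model and 0 usage calls, and AKR1B1 (adjusted p = 0.122) and BSG (0.113) were not called.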

Other observations

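Annotated retrocopies of the enzymes held 60 counts (TPI1P1 48, GAPDHP1 9, LDHAP4 2 and ENO1P1 1), and annotated genes on the opposite strand held 3 counts. On the same strand, ENSG00000285043, a coding gene that overlaps ALDOA, was counted 112, 99 and 130 times in siControl (highest, middle and lowest total) and 163, 165 and 119 times in siDelta2-4, and ENSG00000285854, which overlaps LDHB, held 97 counts in all. With these same-strand counts added, the log2 fold change of ALDOA was -0.067 in place of -0.13, and 1 enzyme was called, as without them.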
